A study of Oryza sativa with 12 samples.

Results

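Zinc withdrawal was examined in crowns of Zn-inefficient rice. The crown is the compact stem base from which leaves and crown roots emerge. The comparison sets crowns of IR64, IR74 and Kinandang Patong kept for 8 days in nutrient solution with 0 µM ZnSO4 against crowns of the same 3 genotypes kept with 1.5 µM ZnSO4. Bicarbonate and agar were in the solution of both groups. It used 6 of the 12 libraries of the series, with 1 library per genotype and Zn supply, and every gene of the deposited tables was a member, 33277 in all. The other 6 libraries were crowns of the Zn-efficient genotypes IR55179-3B-11-3, Nipponbare and RIL46, grown without and with Zn in the same way. They enter here only where a response is set against theirs. The 3 libraries of a group are of 3 genotypes, so the spread between them takes in differences between genotypes. Whether the authors' fit accounted for genotype is not given in the labels. The deposited SEs of high-count genes were nearly equal within and between classes, at 0.368 for OS01G0974200 and 0.372 for OS01G0149800 in each contrast used. A fit with no genotype term and 1 spread per gene shared by all libraries would give such SEs. Nothing in the labels says whether the 2 libraries of a genotype came from separate cultures. The p-values thus measure only a spread between libraries, which may also be technical in part and appears to be pooled over all groups. A class is a set of 3 cultivars or lines and not a pair of near-isogenic plants.

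Zinc enters grass cells mainly through transporters of the ZIP family (ZRT, IRT-like protein) and is pumped out of the cytosol or into organelles by heavy-metal ATPases. Inside the plant it travels bound to small chelators, chiefly nicotianamine, from which grasses also make the mugineic acids that they release to mobilise iron and zinc. Many enzymes and zinc finger proteins hold zinc, and rice on alkaline, bicarbonate-rich soils is known for zinc deficiency. Symbols of zinc, iron and marker genes were assigned to locus identifiers from knowledge of the field and not from the files, whose annotation often describes the locus otherwise. Each is therefore printed once with its identifier, which is what its values belong to.

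The authors' deposited table tested whether each gene changed by more than 2-fold, and a gene is called here at an adjusted p under 0.05 from that DESeq2 test. Of 24127 genes tested, 844 (3.5%) were called. In crowns without Zn 584 genes (2.42%) rose and 260 (1.08%) fell, against crowns with Zn. The median log2 fold change of all tested genes was 0.00, and 50.2% of them were positive. The table gave no p for 763 genes, 503 of which reached a mean of 20 normalized counts, and 8387 genes were left out by the authors' filter on low counts. Values per library were not analysed here, so the depth of each library is unknown. For each group a mean normalized count was instead derived from the authors' deposited tables by splitting the overall mean according to the group contrasts. These levels carry no error of their own. They are not divided by gene length, so a higher count of 1 gene than of another is not a higher abundance.

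Rises had the larger median. Among the rises the median log2 fold change in the authors' deposited table was 3.20 (quartiles 2.40 and 4.58), and 197 lay above 4. For the falls the median was -2.61 (quartiles -2.97 and -2.36), and 11 lay below -4. The derived level of a rising gene had a median of 290.5 normalized counts without Zn and 28.3 with Zn. A falling gene had a median of 45.2 without Zn and 278 with Zn. Together the rising genes held 6.71% of all derived counts in inefficient crowns without Zn and 0.834% in inefficient crowns with Zn. In efficient crowns the same genes held 3.33% without Zn and 0.99% with Zn. The falling genes held 0.256% without Zn and 1.56% with Zn in inefficient crowns, and 0.571% without Zn and 1.16% with Zn in efficient crowns. The genes were called on the inefficient libraries, so their smaller movement in the efficient class is a description.

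**Figure D1:**
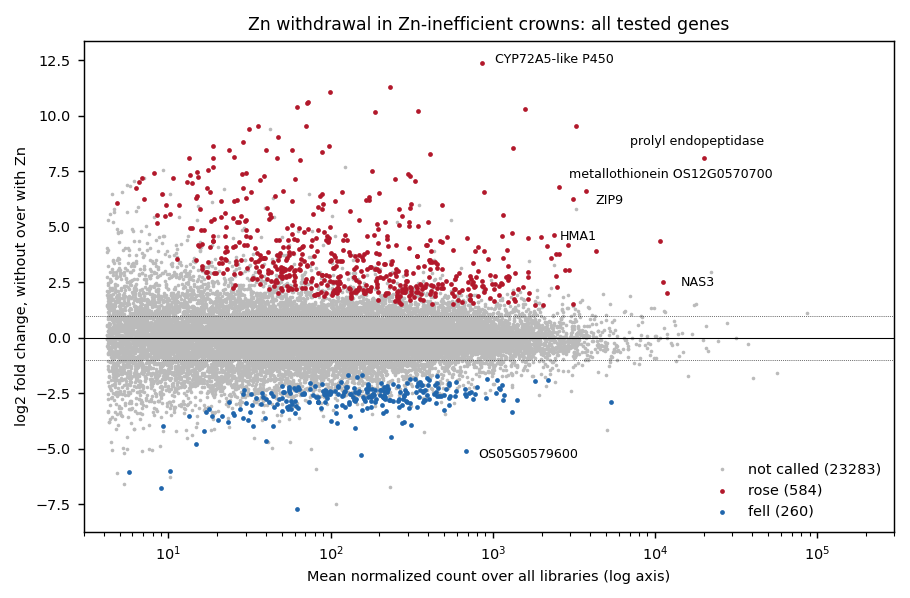
Deposited log2 fold change (without over with Zn, inefficient genotypes) of the 24127 tested genes against their mean normalized count over all libraries on a log axis. Red points are the 584 genes that rose, blue the 260 that fell, grey those not called, and dotted lines mark a 2-fold change. The highest rises lie further from 0 than the lowest falls.

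Prolyl endopeptidase OS04G0561500, a protease that cuts after proline, took the highest share of counts without Zn among the genes that rose. Its derived level was 49578 normalized counts without Zn and 179 with Zn, which is 0.59% and 0.00226% of all derived counts. The log2 fold change in the authors' deposited table was 8.11 (SE 0.49, adjusted p = 4.16e-44). Next by count without Zn came a family 18 glycosyl hydrolase, OS05G0247100, at 27799 without Zn against 1354 with Zn. Its deposited SE was wide, and it was called narrowly in the authors' deposited table (log2 4.36, SE 1.07, adjusted p = 0.0481). An h-type thioredoxin, OS07G0186000, annotated as a regulator of the redox state outside the cell, had 26209 without Zn and 4644 with Zn (log2 2.50, SE 0.34, adjusted p = 0.000672 from the authors' deposited table).

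Marker genes of crown tissues were read before the gene groups. All libraries of the series are crowns, so these markers describe shifts between Zn supplies and cannot test tissue identity. The shoot meristem markers OSH1 (OS03G0727000), OSH6 (OS01G0302500), OSH15 (OS07G0129700) and OSH43 (OS03G0727200) were all measured and 0 of 4 was called. Their summed derived level was 3354 without Zn and 4440 with Zn. The markers of crown root primordia CRL1 (OS03G0149100), CRL5 (OS07G0124700, annotated as similar to PLETHORA1) and WOX11 (OS07G0684900) were measured at a sum of 166 without Zn and 282 with Zn, with 0 of 3 called. Among the root genes RCc3 (OS02G0662000), OS10G0490900, NRT2.1 (OS02G0112100, annotated as similar to BCH2) and NIP2;1 (OS02G0745100), 0 of 4 was called, and their sum was 2724 without Zn and 5314 with Zn. RCc3 moved most of these toward lower values, at log2 -1.47 (SE 0.44) in the authors' deposited table. OS10G0490900 and NRT2.1 lay on the positive side in that table, at 2.03 (SE 1.00) and 1.49 (SE 0.71). The median log2 of the 4 root genes was 0.46, and their lower sum came from RCc3 and NIP2;1. Photosynthesis genes gave 0 rises and 1 fall (2.33%, against 1.08% of all genes) among 43 tested. The fall was a photosystem II protein of photoprotection, and the sum of the list was 10491 without Zn and 9451 with Zn. At an unadjusted p under 0.05 of the authors' deposited DESeq2 test 0 of these shoot meristem, crown root and root markers passed as well. In a test of any change, recomputed from the authors' deposited table, 1 marker of each of these 3 sets was lower without Zn and 0 were higher. No defining marker was at 0 in any group. The marker sums differed between the groups by these amounts, and their part in the results below was not tested.

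Part of the ZIP family of zinc uptake genes rose without Zn. Of 12 ZIP genes 10 were tested, and 5 rose (50%, against 2.42% of all genes) and 0 fell. Their median log2 fold change was 3.10 against 0.00 for all genes. Summed over the family, the derived level was 29500 normalized counts without Zn and 2317 with Zn. ZIP9 (OS05G0472400), a transporter of zinc into the root, had 7896 without Zn and 80.0 with Zn (log2 6.63, SE 0.38, adjusted p = 4.12e-45 from the authors' deposited table). It was the gene of the family with the highest fold. ZIP4 (OS08G0207500, annotated as a ZIP1-like zinc transporter), which moves zinc within the shoot and into vascular tissue, had 3011 without Zn and 114 with Zn (log2 4.72, SE 0.27, adjusted p = 4.85e-39 from the authors' deposited table). ZIP8 (OS07G0232800, also annotated as ZIP1-like), a zinc transporter of the plasma membrane, had 6451 without Zn and 360 with Zn (log2 4.17, SE 0.38, adjusted p = 2.81e-14 from the authors' deposited table). ZIP5 (OS05G0472700), a zinc importer that neighbours ZIP9 in locus order, had 1610 without Zn and 108 with Zn (log2 3.90, SE 0.40, adjusted p = 1.05e-10 from the authors' deposited table). ZIP7 (OS05G0198400, annotated as similar to zinc transporter 4), known for passing zinc between vascular tissues, had the widest error of the rising ZIP genes, with 7685 without Zn and 514 with Zn (log2 3.90, SE 0.83, adjusted p = 0.0174 from the authors' deposited table).

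The other ZIP genes did not pass. ZIP2 (OS03G0411800) was at 1873 normalized counts without Zn and 549 with Zn (log2 1.77, SE 0.44, adjusted p = 0.906 from the authors' deposited table). IRT1 (OS03G0667500), the iron uptake transporter of the family, was at 60.9 without Zn and 12.3 with Zn (log2 2.30, SE 0.63, adjusted p = 0.538 from the authors' deposited table). ZIP1 (OS01G0972200, annotated as similar to zinc transporter 2) and ZIP6 (OS05G0164800) had log2 fold changes of 0.66 (SE 0.38) and 0.70 (SE 0.21), as listed in the authors' deposited table. ZIP3 (OS04G0613000), which takes zinc out of the xylem in nodes and hands it to developing tissue, was the only tested member on the negative side at log2 -0.82 (SE 0.99) in that table, with 11.6 without Zn and 20.5 with Zn. ZIP10 (OS06G0566300) was under the filter on low counts. IRT2 (OS03G0667300) was given no p, at log2 -0.47 in that table.

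Of 7 tested genes of zinc export and sequestration 1 rose (14.3%, against 2.42% of all genes) and 0 fell. The median log2 fold change was 0.17. HMA1 (OS06G0690700), a heavy-metal ATPase annotated as a cadmium/zinc-transporting ATPase and placed in the chloroplast envelope in Arabidopsis, was at 5257 normalized counts without Zn and 303 with Zn. Its log2 fold change was 4.12 (SE 0.17, adjusted p = 3.83e-69 from the authors' deposited table). HMA2 (OS06G0700700), which loads zinc into vascular tissue, was at 244 without Zn and 368 with Zn (log2 -0.59, SE 0.18, adjusted p = 1 from the authors' deposited table). MTP1 (OS05G0128400), a vacuolar zinc importer, was at 599 without Zn and 474 with Zn (log2 0.34, SE 0.19, adjusted p = 1 from the authors' deposited table). HMA3 (OS07G0232900), HMA4 (OS02G0196600) and HMA5 (OS04G0556000), which handle zinc, cadmium or copper, lay between log2 -0.08 and 0.62 in the authors' deposited table.

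**Figure D2:**
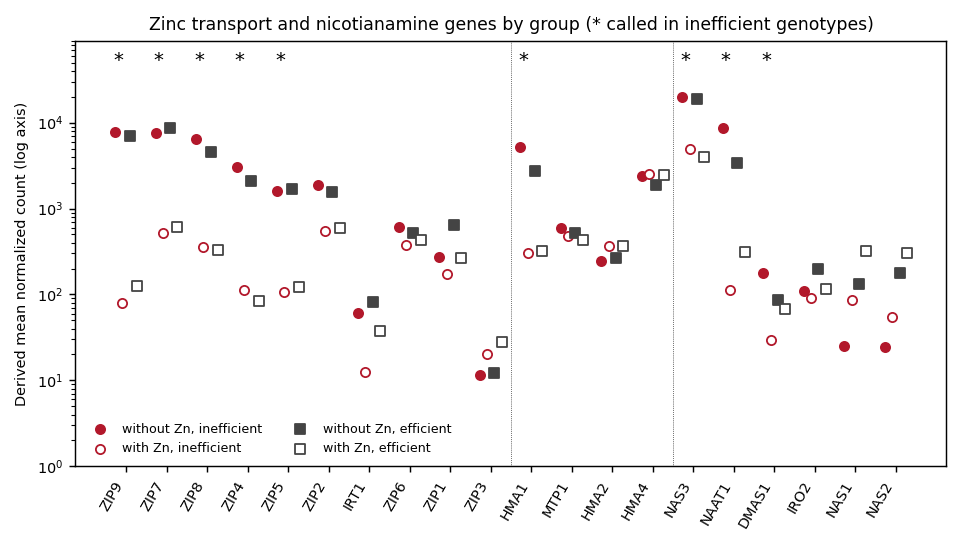
Derived mean normalized count (log axis) of ZIP genes, zinc ATPases with MTP1, and nicotianamine genes in the 4 groups. Circles are inefficient and squares efficient genotypes, filled without Zn and open with Zn, and stars mark genes called in inefficient genotypes. Filled and open circles are far apart for 5 called ZIP genes, HMA1, NAS3, NAAT1 and DMAS1, and also for IRT1 and ZIP2, which were not called. The filled circle lies below the open one for ZIP3, HMA2, HMA4, NAS1 and NAS2.

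Of 9 nicotianamine and mugineic acid genes tested 3 rose (33.3%, against 2.42% of all genes) and 0 fell. The median log2 fold change was -0.45. NAS3 (OS07G0689600), a nicotianamine synthase, was at 19861 normalized counts without Zn and 4922 with Zn (log2 2.01, SE 0.20, adjusted p = 4.79e-05 from the authors' deposited table). NAAT1 (OS02G0306401), the aminotransferase that turns nicotianamine toward mugineic acids, was at 8644 without Zn and 114 with Zn (log2 6.25, SE 0.43, adjusted p = 3.39e-31 from the authors' deposited table). DMAS1 (OS03G0237100), the last enzyme of deoxymugineic acid synthesis, annotated as a codeinone reductase, was at 179 without Zn and 29.8 with Zn (log2 2.59, SE 0.44, adjusted p = 0.0112 from the authors' deposited table). The other nicotianamine synthases, known for the iron deficiency response, did not pass and were lower without Zn. NAS1 (OS03G0307300) was at 24.8 without Zn and 85.5 with Zn (log2 -1.79, SE 0.82, adjusted p = 1 from the authors' deposited table). NAS2 (OS03G0307200) was at 24.2 without Zn and 55.2 with Zn (log2 -1.19, SE 0.68, adjusted p = 1 from the authors' deposited table). IRO2 (OS01G0952800, annotated as Achaete-scute related), the bHLH factor that drives iron uptake genes of rice, was at 111 without Zn and 90.6 with Zn (log2 0.29, SE 0.47, adjusted p = 1 from the authors' deposited table). The iron chelate carriers YSL15 (OS02G0650300) and YSL2 (OS02G0649900) had log2 fold changes of -0.73 (SE 0.64) and -1.45 (SE 0.83) in that table, neither past the test.

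Metallothioneins, small cysteine-rich metal-binding proteins, gave 1 rise and 0 falls among 11 tested genes. The share that rose was 9.09%, against 2.42% of all genes, and the median log2 was 0.55. The type 1 gene OS12G0570700 was at 9430 normalized counts without Zn and 84.7 with Zn (log2 6.80, SE 0.55, adjusted p = 2.70e-23 from the authors' deposited table). Its neighbour OS12G0571000, of the same type, was at 1176 without Zn and 77.6 with Zn and did not pass (log2 3.92, SE 1.39, adjusted p = 0.506 from the authors' deposited table). These are close copies, and reads between them may have been divided by the counting. The members with the most counts were lower without Zn and did not pass. OS01G0974200 was at 25358 without Zn and 77036 with Zn (log2 -1.60, SE 0.37, adjusted p = 1 from the authors' deposited table). OS05G0111300 was at 16123 without Zn and 56205 with Zn (log2 -1.80, SE 0.38, adjusted p = 0.498 from the authors' deposited table). The summed derived level of the family was thus 71697 without Zn and 146885 with Zn.

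Of 65 tested zinc enzymes 3 rose (4.62%) and 1 fell (1.54%), against 2.42% and 1.08% of all genes, and the median log2 fold change was 0.23. A carbonic anhydrase, OS01G0639900, which hydrates carbon dioxide with a zinc ion, was at 4760 normalized counts without Zn and 399 with Zn (log2 3.58, SE 0.20, adjusted p = 6.17e-36 from the authors' deposited table). Both other rises were alcohol dehydrogenases, OS04G0229100 at log2 2.43 (SE 0.23) and OS04G0497000 at log2 3.56 in the authors' deposited table. The fall was OS12G0613250, annotated with a BTB/POZ domain and with a copper/zinc superoxide dismutase, at 70.3 without Zn and 302 with Zn (log2 -2.10, SE 0.35, adjusted p = 0.0461 from the authors' deposited table). Among 555 zinc finger genes tested, 14 rose (2.52%) and 3 fell (0.541%), and the median was 0.11. The highest fold among them belonged to a C2H2 zinc finger gene, OS11G0702400, at 906 without Zn against 0.355 with Zn (log2 11.32, SE 1.22 from the authors' deposited table). A level below 1 normalized count leaves such a fold imprecise.

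**Figure D3:**
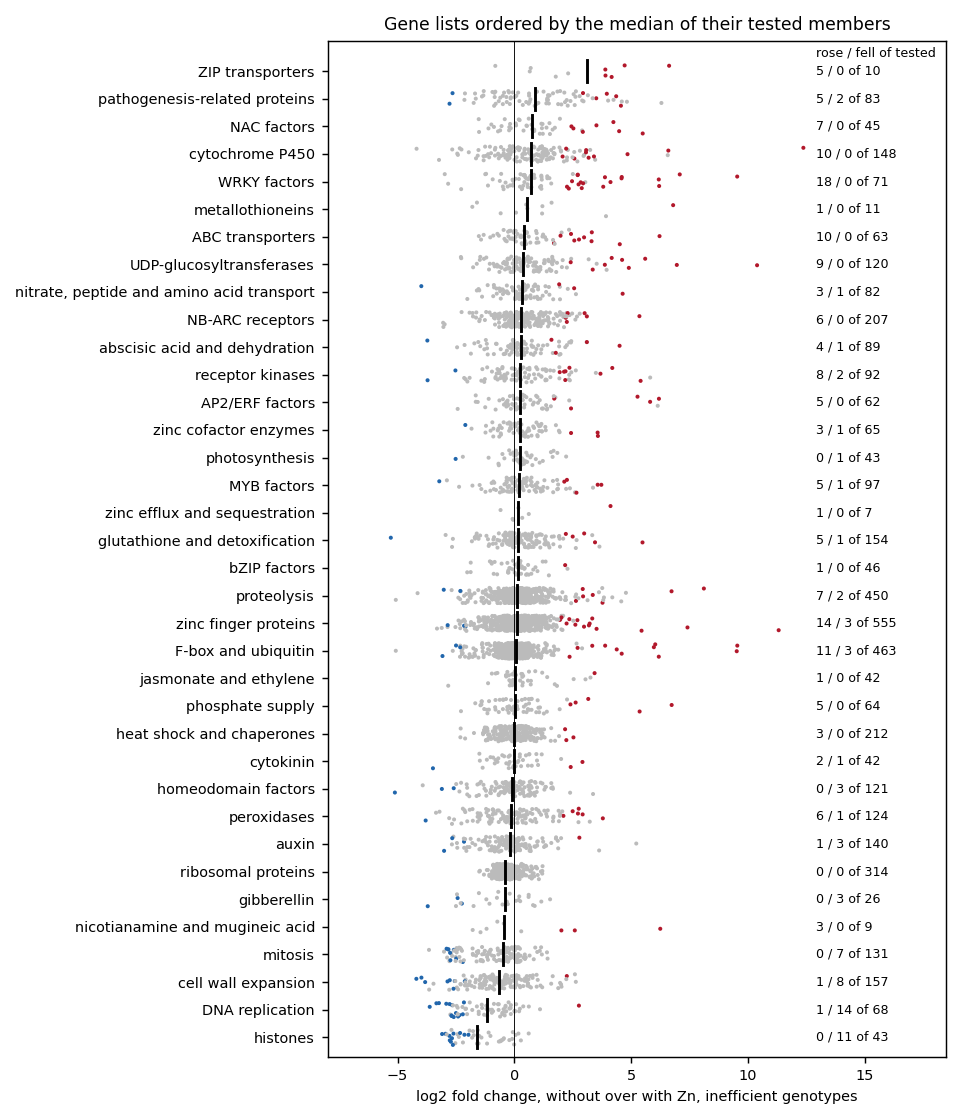
Deposited log2 fold change (without over with Zn, inefficient genotypes) of every tested gene of 36 gene lists, 1 row per list in order of the median (black bar). Red points rose, blue points fell and grey points were not called, and the right column counts rises and falls of the genes tested. ZIP transporters lie highest and histones lowest.

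Genes of DNA replication and chromatin assembly formed the largest block of falls among the gene lists. Of 68 replication genes tested 1 rose and 14 fell, against 1.08% of all genes falling, and their median log2 fold change was -1.18, with 58 of 68 negative. At an adjusted p under 0.01 there were 8 falls, beyond 4-fold 0, and by a test of any change 42. The description of another fall, OS05G0235800, names an MCM domain of the replicative helicase without the words by which the list was drawn, and its level was at 67.3 normalized counts without Zn and 495 with Zn (log2 -2.88, SE 0.33, adjusted p = 1.51e-06 from the authors' deposited table). PROLIFERA-like OS12G0560700, also outside the list and named for the MCM7 subunit in Arabidopsis, was at 55.8 without Zn and 355 with Zn (log2 -2.67, SE 0.32, adjusted p = 2.02e-05 from the authors' deposited table). Within the list, OS08G0163300, annotated as DNA polymerase delta, was at 6.19 without Zn and 76.3 with Zn (log2 -3.63, SE 0.58, adjusted p = 0.000475 from the authors' deposited table). Replication protein A1, OS03G0214100, which coats single-stranded DNA, was at 99.4 without Zn and 933 with Zn (log2 -3.23, SE 0.53, adjusted p = 0.00132 from the authors' deposited table). The other falls of the list were 2 subunits of the origin recognition complex, MCM2, MCM3 and MCM4 homologs, a DNA primase, DNA polymerases, among them alpha and epsilon, PCNA, a maintenance DNA methyltransferase and the enzyme that makes thymidylate. The single rise was OS01G0508100, annotated only as a ferritin/ribonucleotide reductase-like protein, at log2 2.76 in the authors' deposited table. In efficient genotypes the 68 replication genes had a median log2 of -0.66, and 62 of them were negative.

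Histones gave 11 falls and 0 rises among 43 tested genes, with a median log2 of -1.60 and 39 of 43 negative. There were 2 falls at an adjusted p under 0.01 and 0 beyond 4-fold. The list's summed derived level was 16179 normalized counts without Zn and 38435 with Zn. An H2A gene, OS03G0279200, was at 376 without Zn and 2583 with Zn (log2 -2.78, SE 0.49, adjusted p = 0.0106 from the authors' deposited table). The H4 gene OS07G0549900 was at 142 without Zn and 628 with Zn (log2 -2.14, SE 0.30, adjusted p = 0.00755 from the authors' deposited table). Histone genes are near-identical copies, so single members are uncertain where counting divided their reads. Genes of mitosis followed with 7 falls and 0 rises of 131, or 5.34% against 1.08% of all genes falling, at a median of -0.49. The falls numbered 1 at an adjusted p under 0.01 and 0 beyond 4-fold. OS09G0111100, a D-type cyclin that opens the cell cycle, was at 65.7 without Zn and 439 with Zn (log2 -2.74, SE 0.34, adjusted p = 2.30e-05 from the authors' deposited table). A homolog of the spindle checkpoint protein MAD2, OS04G0486500, was at 39.3 without Zn and 278 with Zn (log2 -2.83, SE 0.51, adjusted p = 0.0139 from the authors' deposited table), and 2 kinesins were also among the falls. OSH1, a homeobox gene that marks the shoot meristem, was at 818 without Zn and 1880 with Zn and did not pass (log2 -1.20, SE 0.33, adjusted p = 1 from the authors' deposited table), and its part in these falls was not tested. In efficient genotypes histones had a median log2 of -0.48, with 36 of 43 negative. Mitosis genes had a median of -0.29 there, with 98 of 131 negative, against 96 in inefficient genotypes. Fewer dividing cells in the crown and less of these transcripts in each cell cannot be told apart in bulk tissue.

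Ribosomal protein genes, often high in growing tissue, gave 0 calls of 314 in the authors' deposited DESeq2 table, against 3.5% of all genes called. The count was also 0 at an unadjusted p under 0.05 of that DESeq2 test, while 248 were negative and their median log2 was -0.40. By a test of any change, 16 of them were higher and 110 lower without Zn. The efficient genotypes had a median of -0.39 for the same genes.

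Of 157 tested genes of wall expansion 1 rose (0.637%) and 8 fell (5.1%), against 2.42% and 1.08% of all genes, and the median log2 was -0.64. A xyloglucan-modifying enzyme, OS04G0631200, was at 356 normalized counts without Zn and 2086 with Zn (log2 -2.55, SE 0.30, adjusted p = 2.44e-05 from the authors' deposited table). Expansin-B12, OS03G0645000, a protein that loosens the wall, was at 49.3 without Zn and 300 with Zn (log2 -2.61, SE 0.34, adjusted p = 0.00023 from the authors' deposited table). A pectinesterase-like gene, OS04G0553650, was at 6.50 without Zn and 103 with Zn (log2 -3.98, SE 0.63, adjusted p = 0.000178 from the authors' deposited table). Outside the list, 3 falls were named for their level or adjusted p. Beta-2 tubulin, OS01G0805900, a subunit of microtubules, was at 894 without Zn and 3296 with Zn (log2 -1.88, SE 0.24, adjusted p = 0.0117 from the authors' deposited table). Actin-depolymerizing factor 2, OS05G0113400, was at 737 without Zn and 2839 with Zn (log2 -1.94, SE 0.21, adjusted p = 0.000545 from the authors' deposited table). Cell-wall invertase OS04G0413500, which splits sucrose delivered to sink tissue, was at 42.7 without Zn and 448 with Zn (log2 -3.39, SE 0.42, adjusted p = 2.20e-06 from the authors' deposited table).

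Among single falls with high levels, a phosphoethanolamine methyltransferase, OS05G0548900, of choline lipid synthesis, was at 245 normalized counts without Zn and 2449 with Zn (log2 -3.32, SE 0.58, adjusted p = 0.00333 from the authors' deposited table). The homeodomain-like gene OS05G0579600 was at 38.3 without Zn and 1331 with Zn (log2 -5.12, SE 0.65, adjusted p = 5.10e-08 from the authors' deposited table). Homeodomain genes gave 3 falls (2.48%, against 1.08% of all genes) and 0 rises of 121. The falls also included a BEL1-type gene (OS06G0562300, log2 -3.11, SE 0.56) and a ZF-HD gene (OS09G0414500, log2 -2.60, SE 0.51) in that table. A thaumatin-like gene, OS06G0691200, was at 332 without Zn and 2277 with Zn (log2 -2.78, SE 0.44, adjusted p = 0.00243 from the authors' deposited table).

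**Figure D4:**
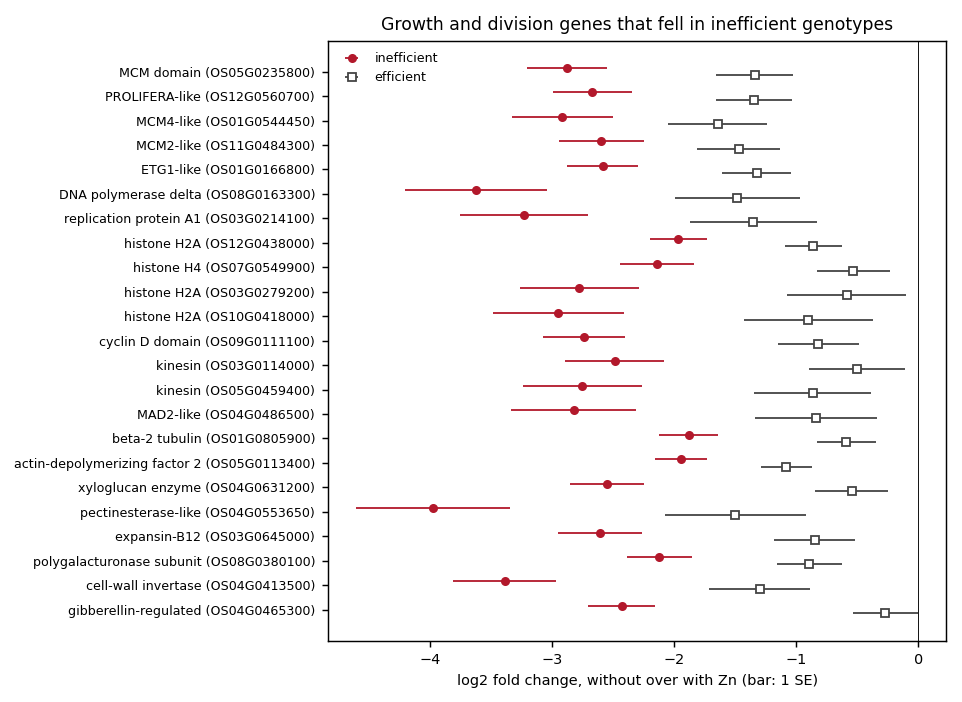
Deposited log2 fold change (without over with Zn) with 1 SE for 23 genes of replication, histones, mitosis, cytoskeleton, cell wall and growth that fell in inefficient genotypes. Filled red circles are inefficient and open squares efficient genotypes. Every red circle lies left of its open square. The genes were chosen as falls in the inefficient class.

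Of 26 gibberellin genes tested 0 rose and 3 fell, or 11.5% against 1.08% of all genes falling. OS04G0465300, a small secreted protein of the gibberellin-regulated family, was at 125 normalized counts without Zn and 673 with Zn (log2 -2.43, SE 0.27, adjusted p = 1.88e-05 from the authors' deposited table). OS03G0607200, of the same family, was at 49.4 without Zn and 235 with Zn (log2 -2.25, SE 0.39, adjusted p = 0.038 from the authors' deposited table). Of 140 auxin genes 1 rose (0.714%) and 3 fell (2.14%), the falls being an Aux/IAA-type gene (OS11G0221000, log2 -2.66), a SAUR-like gene (OS02G0445100, log2 -2.16) and an auxin-induced bHLH gene (OS04G0526000, log2 -3.01) in the authors' deposited table. The auxin rise was a dormancy/auxin-associated gene, OS09G0437500, at 1031 without Zn and 150 with Zn (log2 2.78, SE 0.42 from the authors' deposited table). Of 42 cytokinin genes 2 rose (4.76%) and 1 fell (2.38%). OS01G0588900, annotated as an enzyme that activates cytokinin, rose to 619 without Zn, against 82.1 with Zn (log2 2.91, SE 0.23, adjusted p = 1.12e-13 from the authors' deposited table). OS02G0628000, annotated as a probable enzyme of the same step, fell to 4.80 without Zn, against 53.8 with Zn (log2 -3.49, SE 0.64, adjusted p = 0.00486 from the authors' deposited table).

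Abscisic acid and dehydration genes gave 4 rises and 1 fall of 89, and 4.49% rose against 2.42% of all genes. A late embryogenesis abundant protein gene, OS01G0314800, of the proteins that protect drying cells, was at 2233 normalized counts without Zn and 98.4 with Zn (log2 4.50, SE 0.50, adjusted p = 7.16e-10 from the authors' deposited table). Protein phosphatases 2C, brakes on abscisic acid signalling in some families, were on both sides. OS03G0207400 was at 402 without Zn and 46.8 with Zn (log2 3.10, SE 0.50, adjusted p = 0.00145 from the authors' deposited table). OS09G0557900 was at 15.8 without Zn and 209 with Zn (log2 -3.73, SE 0.61, adjusted p = 0.000532 from the authors' deposited table). Jasmonate and ethylene genes gave 1 rise (2.38%) of 42, a tify-domain gene of the jasmonate repressor family, OS03G0180900, at log2 3.43 (SE 0.74) in that table.

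WRKY genes formed the largest block of rises among the transcription factor lists. Of 71 WRKY genes tested 18 rose and 0 fell, against 2.42% of all genes rising, and the median log2 was 0.69. All 18 still passed at an adjusted p under 0.01. WRKY45, OS05G0322900, annotated as inducible by the defence activator benzothiadiazole, was at 3876 normalized counts without Zn and 161 with Zn (log2 4.59, SE 0.33, adjusted p = 7.01e-24 from the authors' deposited table). WRKY14, OS01G0730700, was at 496 without Zn and 35.5 with Zn (log2 3.80, SE 0.32, adjusted p = 1.17e-15 from the authors' deposited table). OS05G0343400, annotated with disease resistance, was at 1647 without Zn and 328 with Zn (log2 2.33, SE 0.16, adjusted p = 3.30e-14 from the authors' deposited table). The WRKY genes annotated 62 and 76, neighbours in locus order on chromosome 9 and known in rice as repressors of defence genes, both rose, at log2 6.20 (OS09G0417800) and 7.08 (OS09G0417600) in the authors' deposited table. Of 45 NAC genes 7 rose (15.6%) and 0 fell, at a median of 0.76. A NAC domain gene of the stress and senescence family, OS01G0816100, was at 979 without Zn and 21.7 with Zn (log2 5.50, SE 0.54, adjusted p = 6.86e-14 from the authors' deposited table).

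AP2/ERF genes gave 5 rises (8.06%, against 2.42% of all genes) and 0 falls of 62, with OS12G0582900 at 734 normalized counts without Zn and 13.1 with Zn (log2 5.81, SE 0.44, adjusted p = 3.27e-25 from the authors' deposited table). MYB genes gave 5 rises (5.15%) and 1 fall (1.03%) of 97. The MYB-related OS05G0553400 was at 2445 without Zn and 206 with Zn (log2 3.57, SE 0.24, adjusted p = 4.75e-24 from the authors' deposited table). Of 46 bZIP genes 1 rose (2.17%) and 0 fell.

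Genes of pathogen-response proteins were called in both directions. Of 83 pathogenesis-related genes 5 rose (6.02%) and 2 fell (2.41%), against 2.42% and 1.08% of all genes, at a median log2 of 0.87. A chitinase, OS10G0542900, which cuts fungal cell walls, was at 6341 normalized counts without Zn and 268 with Zn (log2 4.56, SE 0.61, adjusted p = 6.26e-07 from the authors' deposited table). The acidic class III chitinase OS01G0660200 was at 1505 without Zn and 196 with Zn (log2 2.94, SE 0.33, adjusted p = 9.43e-07 from the authors' deposited table). Both falls were thaumatin-like genes, OS06G0691200 above and OS10G0146200 (log2 -2.65, SE 0.36, adjusted p = 0.000269 from the authors' deposited table). Intracellular NB-ARC receptors, which recognise pathogen proteins, gave 6 rises and 0 falls of 207, and the 2.9% that rose is near the share of all genes. Receptor kinases of the cell surface gave 8 rises (8.7%) and 2 falls (2.17%) of 92. A wall-associated kinase, OS09G0471800, was at 399 without Zn and 31.0 with Zn (log2 3.69, SE 0.30, adjusted p = 3.95e-16 from the authors' deposited table).

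Of 148 cytochrome P450 genes, oxygenases of hormones and defence compounds, 10 rose (6.76%, against 2.42% of all genes) and 0 fell, at a median log2 of 0.71. Elicitor-inducible P450 OS09G0441400 was at 7516 normalized counts without Zn and 893 with Zn (log2 3.07, SE 0.31, adjusted p = 2.95e-09 from the authors' deposited table). A P450 similar to CYP72A5, OS01G0627800, was at 3426 without Zn and 0.645 with Zn in inefficient crowns, with the highest fold among the called genes (log2 12.38, SE 1.86, adjusted p = 1.65e-07 from the authors' deposited table). Its efficient fold was -0.52 (SE 1.72) in the authors' deposited table. Of 120 UDP-glucosyltransferases, which attach sugar to small molecules, 9 rose (7.5%) and 0 fell. OS01G0734800 was at 1281 without Zn and 71.3 with Zn (log2 4.17, SE 0.21, adjusted p = 1.04e-49 from the authors' deposited table).

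ABC transporters gave 10 rises and 0 falls of 63, or 15.9%, against 2.42% of all genes. The multidrug-type gene OS01G0695800 was at 609 normalized counts without Zn and 8.19 with Zn (log2 6.22, SE 0.58, adjusted p = 9.18e-17 from the authors' deposited table). OS01G0173900, of the MRP type that moves glutathione conjugates, was at 5574 without Zn and 244 with Zn (log2 4.51, SE 0.43, adjusted p = 2.07e-13 from the authors' deposited table). Genes of glutathione and antioxidant metabolism gave 5 rises (3.25%) and 1 fall (0.649%) of 154, shares near those of all genes. Glutathione S-transferase OS10G0529500 was at 317 without Zn and 29.0 with Zn (log2 3.45, SE 0.40, adjusted p = 1.72e-07 from the authors' deposited table). The fall was the glutaredoxin OS01G0368900, at 6.78 without Zn and 265 with Zn (log2 -5.29, SE 1.00, adjusted p = 0.00116 from the authors' deposited table). Peroxidases gave 6 rises (4.84%) and 1 fall (0.806%) of 124 at a median of -0.15, with OS04G0688300 at 5512 without Zn and 399 with Zn (log2 3.79, SE 0.37, adjusted p = 1.10e-11 from the authors' deposited table).

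**Figure D5:**
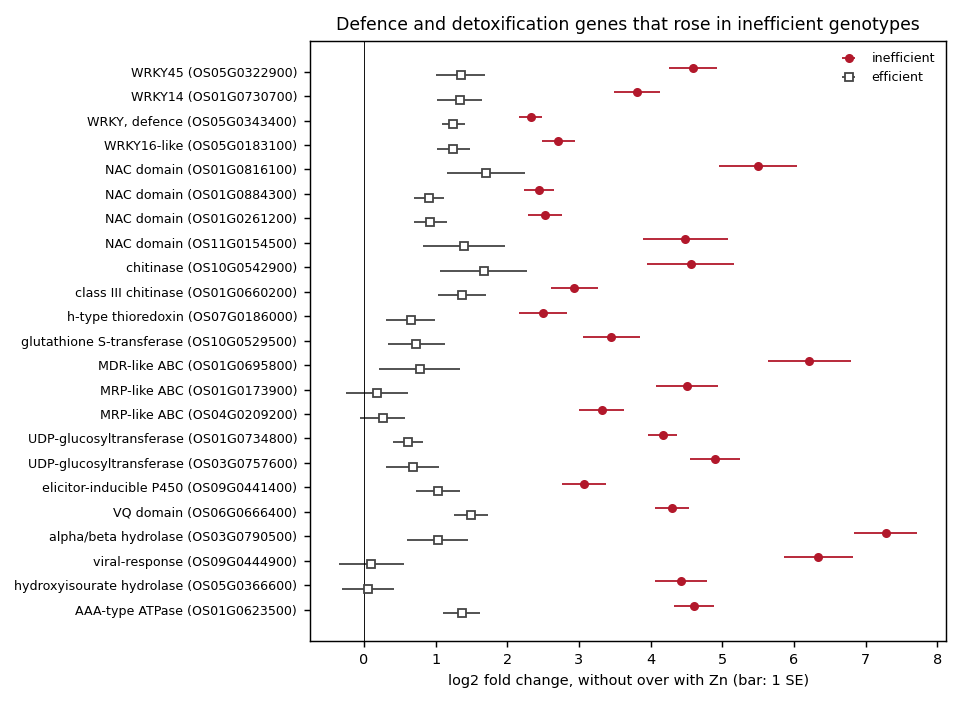
Deposited log2 fold change (without over with Zn) with 1 SE for 23 genes of defence, detoxification and export, with 5 genes of high response difference, all of which rose in inefficient genotypes. Filled red circles are inefficient and open squares efficient genotypes. Every red circle lies right of its open square. The genes were chosen as rises in the inefficient class.

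Phosphate supply genes gave 5 rises and 0 falls of 64, or 7.81% against 2.42% of all genes rising, at a median log2 of 0.01. The phosphate transporter OS03G0150600 was at 2646 normalized counts without Zn and 429 with Zn (log2 2.62, SE 0.18, adjusted p = 1.63e-16 from the authors' deposited table). A purple acid phosphatase, OS01G0776600, which frees phosphate from organic compounds, was at 752 without Zn and 142 with Zn (log2 2.40, SE 0.34, adjusted p = 0.00172 from the authors' deposited table). Rises with phosphate in their description also included a mitochondrial phosphate transporter (OS09G0454600, log2 5.36, SE 0.62) and a lipid phosphate phosphatase (OS01G0693300, log2 3.16, SE 0.67) in that table. Neither description names phosphate uptake. Transporters of nitrate, peptides and amino acids gave 3 rises (3.66%) and 1 fall (1.22%) of 82. The oligopeptide transporter OS01G0960900 was at 3241 without Zn and 130 with Zn (log2 4.64, SE 0.48, adjusted p = 1.71e-11 from the authors' deposited table). The amino acid transporter OS06G0228500 fell to 3.75 without Zn, against 59.4 with Zn (log2 -3.99, SE 0.72, adjusted p = 0.00184 from the authors' deposited table).

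Proteolysis genes gave 7 rises and 2 falls of 450, or 1.56% and 0.444% against 2.42% and 1.08% of all genes. The rises besides the prolyl endopeptidase included an M16 peptidase (OS01G0778800, log2 2.64, SE 0.20) and a homolog of glutamate carboxypeptidase (OS01G0740500, log2 2.94, SE 0.27) in the authors' deposited table. F-box and ubiquitin genes, which mark proteins for breakdown, gave 11 rises (2.38%) and 3 falls (0.648%) of 463, shares near or under those of all genes. The smallest adjusted p of all genes in the comparison was that of the F-box gene OS06G0166000, at 1143 normalized counts without Zn and 54.8 with Zn (log2 4.38, SE 0.16, adjusted p = 2.82e-93 from the authors' deposited table). A second F-box gene, OS04G0280500, was at 8215 without Zn and 11.2 with Zn (log2 9.52, SE 0.62, adjusted p = 6.09e-40 from the authors' deposited table). Chaperone and heat shock genes gave 3 rises (1.42%) and 0 falls of 212, of which 2 were annotated as heat stress factors of the Spl7 type.

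A set of rises came from near silence. For 26 called genes whose overall mean reached 20 normalized counts, the derived level with Zn was under 1 normalized count in inefficient crowns. These genes reached that mean only through the other groups, so the set is a description. Whatever the mean, 51 of 578 rises with derived levels were under 1 with Zn. In the mirror case, 4 of 260 falls were under 1 without Zn. The share over all genes was not taken. The WRKY gene OS01G0584900, annotated 28-like, was at 264 without Zn and 0.355 with Zn (log2 9.54, SE 1.23 from the authors' deposited table). A SUI1-domain gene of translation initiation, OS04G0627900, was at 749 without Zn and 0.659 with Zn (log2 10.15, SE 1.30 from the authors' deposited table). A second initiation factor-like gene, OS01G0280500, was at 332 without Zn and 0.998 with Zn (log2 8.38, SE 1.07 from the authors' deposited table). Fitted folds over so low a level are imprecise and are not bounds.

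Neighbouring genes rose together at 5 places. In the order of locus identifiers among measured genes there were 5 runs of 3 called neighbours, and all 15 genes were rises. On chromosome 4 the run held 2 MRP-type transporters, OS04G0209200 (log2 3.32, SE 0.31) and OS04G0209300 (log2 2.44, SE 0.25), with the hypothetical gene OS04G0210250 in the authors' deposited table. Chromosome 8 held a run of 3 ABC transporter genes, OS08G0398000, OS08G0398300 and OS08G0398350, at log2 1.69, 2.57 and 3.30 in the authors' deposited table. It held another of OS08G0331000, OS08G0331800 and the leucine-rich repeat gene OS08G0331900, at log2 3.09, 5.86 and 2.79 in that table. The run on chromosome 9 was of F-box genes, OS09G0341500, OS09G0341600 and OS09G0342000, and that on chromosome 5 of hypothetical genes, OS05G0142600, OS05G0142900 and OS05G0143000. Neighbours of 1 family can share reads, and adjacent models can be parts of 1 transcript. Across chromosomes the share of tested genes called lay between 2.90% on chromosome 7 and 4.63% on chromosome 5.

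Of genes with a mean under 20 normalized counts 1.46% were called, with a median log2 SE of 0.91 in the authors' deposited table. The share was 4.18% for means of 20 to 100, 3.74% for 100 to 1000 and 4.21% above, where the median SE was 0.18. At the threshold, the formin-like gene OS04G0461800 (log2 -2.82, SE 0.58, adjusted p = 0.049) and the kinase OS11G0173432 (log2 3.95, SE 0.94, adjusted p = 0.0486) were just inside in the authors' deposited table. Just outside were the probenazole-inducible PBZ1-like gene OS12G0555200 (log2 2.90, SE 0.61, adjusted p = 0.0502) and the cation/H+ exchanger OS05G0382200 (log2 4.52, SE 1.13, adjusted p = 0.0505), both from the authors' deposited table.

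The response was then set against that of the Zn-efficient genotypes by testing the difference of the log2 fold changes itself. This difference, computed from the authors' deposited tables with a normal test and Benjamini-Hochberg adjustment over 24127 genes, asked for any difference. It was higher in inefficient genotypes for 381 genes (1.58%) and lower for 189 (0.783%). Of the 584 rises, 256 had a higher response in the inefficient class and 0 a lower one. Of the 260 falls, 75 had a lower response and 0 a higher one. Genes called on the inefficient response lean toward a larger response there, so these shares are descriptions. All p for single differences below come from this test.

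No ZIP gene passed the test of a class difference. Of 10 ZIP genes 0 had a response difference at an adjusted p under 0.05, and 0 at an unadjusted p under 0.05 of the same normal test. For ZIP9 the difference computed from the authors' deposited tables was 0.83 (SE 0.54, adjusted p = 0.658), and for ZIP4 it was 0.10 (SE 0.39, adjusted p = 1). For NAS3 it was -0.23 (SE 0.29, adjusted p = 0.968). A missed threshold does not show that the classes act alike. HMA1, NAAT1, DMAS1 and the metallothionein OS12G0570700 did differ. The difference for HMA1, computed from the authors' deposited tables, was 1.04 (SE 0.24, adjusted p = 0.00294). NAAT1 had a difference of 2.78 (SE 0.60, adjusted p = 0.000857), with derived levels with Zn of 114 in inefficient and 310.4 in efficient crowns. For DMAS1 it was 2.27 (SE 0.61, adjusted p = 0.0151). Its derived levels were 29.8 in inefficient and 68.1 in efficient crowns with Zn, and 179 and 85.1 without Zn. The metallothionein had a difference of 4.05 (SE 0.77, adjusted p = 7.27e-05). Of 11 tested metallothioneins 1 had a higher and 0 a lower response.

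Members with a response difference are given by list, against 1.58% higher and 0.783% lower over all genes, and the lists were not tested against each other. WRKY genes had 12 of 71 members with a higher and 0 with a lower response, and P450 genes had 8 and 0 of 148. NAC genes had 6 and 0 of 45, ABC transporter genes 6 and 0 of 63, and zinc finger genes 14 and 2 of 555. On the falling side, cell wall genes had 1 higher and 7 lower of 157, histones 0 higher and 3 lower of 43, and mitosis genes 0 higher and 3 lower of 131. DNA replication genes had 0 higher and 1 lower among 68, so for nearly all of them singly a class difference did not pass after adjustment. Ribosomal protein genes had 0 higher and 1 lower among 314. With the unadjusted p of the same normal test held to the same threshold, the falling lists leaned to lower responses. Replication genes then had 1 higher and 14 lower, histones 0 and 21, mitosis genes 0 and 34, and cell wall genes 3 and 36. Ribosomal protein genes had 4 and 4. These unadjusted counts are descriptions, and a class difference of a whole list was not tested.

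Genes with the highest ratio of difference to error were led by the glucosyltransferase OS01G0734800, whose log2 fold change in the authors' deposited tables was 4.17 (SE 0.21) in inefficient and 0.61 (SE 0.21) in efficient genotypes. An alpha/beta hydrolase gene, OS03G0790500, was at 1184 normalized counts without Zn and 7.60 with Zn in inefficient crowns, and its deposited log2 fold change was 7.28 (SE 0.44) there and 1.03 (SE 0.43) in efficient crowns in the authors' deposited tables. The hydroxyisourate hydrolase OS05G0366600, of urate breakdown, had 4.43 (SE 0.36) in inefficient and 0.06 (SE 0.36) in efficient genotypes in the authors' deposited tables. At the other end of this ranking stood OS02G0285300, a DREPP plasma membrane protein, at 335 without Zn and 1592 with Zn in inefficient crowns. Its log2 fold change was -2.25 (SE 0.24) in inefficient and 0.14 (SE 0.24) in efficient genotypes in the authors' deposited tables. The gibberellin-regulated gene OS04G0465300 had -2.43 (SE 0.27) in inefficient and -0.27 (SE 0.27) in efficient genotypes in the same deposited tables of the authors.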

How the data were processed

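Total RNA of rice crowns was sequenced as paired-end libraries, per the labels. Per the submitters' processing notes, the authors used DESeq2 1.12.3, featureCounts from Subread 1.5.0-p3, HISAT2 2.0.4, Trimmomatic 0.36 and FastQC 0.11.5 with genome build IRGSP-1.0. Whether counting used strand is not stated, so reads of overlapping or antisense genes may be mixed. Of the 6 tables of the authors' comparisons, 4 were used, and each holds 1 value per gene. Per the file headers, the deposited values are the mean normalized count over libraries (a signal scaled by size factors), the log2 fold change, its SE (another quantity on the log2 scale), a test score, the p-value and the adjusted p-value. The authors' p-value tests a change beyond 2-fold on both sides, since p recomputed from the deposited log2 fold change and SE differed from it by at most 2.93e-14. The near-equal SEs within and between classes point to 1 dispersion per gene over all libraries. An unequal spread in the classes would then not show in the SEs.

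Groups follow the labels. Group levels were derived for 29367 genes whose contrasts closed to within 0.01, taking the overall mean as an evenly weighted mean of the 4 groups. The response difference was the deposited log2 fold change of the inefficient class less that of the efficient class, divided by the square root of the sum of their squared SEs (two-sided normal p, Benjamini-Hochberg adjustment), and the scripts were tested on simulated data. The robust SD of this statistic was 1.05 over genes whose mean reached 20. The 39 gene lists, by locus or by words of the product description, and the members were chosen with earlier results of these data known. Named genes, taken from called genes whose mean reached 20 and whose product is informative, were the 10 rises and 10 falls with the smallest adjusted p, the 6 rises and 6 falls with the highest levels, up to 4 members per list, the 6 highest and 6 lowest ratios of response difference to SE, zinc genes whatever their values, genes nearest the threshold, genes in runs and genes near silence. Other genes in the text were named after their values were seen. Not every gene the rule gives is described. No sequence of the genes' build was used here. Computation was in Python 3.11.15 (matplotlib 3.10.9, scipy 1.17.1, numpy 2.4.6, pandas 2.3.3).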

Additional observations from a re-analysis of the deposited data

Results flagged for a closer look

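The Zn response of inefficient genotypes differed from that of efficient genotypes by the test of the difference for 381 genes in the higher direction and for 189 in the lower. The values that follow are differences of log2 fold change, inefficient minus efficient, computed from the authors' deposited tables. Among genes that rose, the alpha/beta hydrolase OS03G0790500 differed by 6.25 and the viral-response gene OS09G0444900 by 6.24. The hydroxyisourate hydrolase OS05G0366600 differed by 4.37 and the glucosyltransferase OS01G0734800 by 3.55. The AAA-type ATPase OS01G0623500 differed by 3.24 and the VQ-domain gene OS06G0666400 by 2.81. Of the zinc and chelator genes, NAAT1 (OS02G0306401) differed by 2.78, DMAS1 (OS03G0237100) by 2.27 and HMA1 (OS06G0690700) by 1.04. The metallothionein OS12G0570700 differed by 4.05. Among genes that fell, the DREPP membrane protein OS02G0285300 differed by -2.39 and the serine carboxypeptidase OS04G0396800 by -2.28. The gibberellin-regulated gene OS04G0465300 differed by -2.16 and the xyloglucan enzyme OS04G0631200 by -2.005. The Erwinia-induced-like gene OS02G0769200 differed by -1.35 and the heavy-metal domain gene OS01G0719600 by -1.13.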

How the results depend on the processing

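The 584 rises numbered 458 at an adjusted p under 0.01, 4104 in a test of any change, 163 in a test beyond 4-fold, 562 with no filter on low counts, 538 with means of at least 20 and 585 centred on the median gene. The 260 falls numbered 132, 3665, 3, 240, 261 and 259 under the same settings in that order. The 381 higher responses numbered 206 at an adjusted p under 0.01, 37 for a difference beyond 2-fold, 396 with means of at least 20 and 365 after centring. The 189 lower responses numbered 58, 1, 200 and 200 in that order. Centring moved log2 values by 0.00 for the response and 0.02 for the difference. The direction of the named genes was not tested by these settings, because only centring alters a log2 fold change. A test beyond 4-fold ended the call of 101 named genes, an adjusted p under 0.01 that of 28, and no filter that of 6, while a test of any change added 15. In that test 30 of 43 histones and 57 of 131 mitosis genes were lower without Zn. No paired analysis was possible because each table gives a single value for a gene, so a genotype block and leaving out each genotype were not run, and whether 1 genotype carries a call was not tested. Promoter motifs were not run, since no sequence of this build was used. No depth per library was analysed.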

Other observations

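Several of the smallest adjusted p belonged to genes with no described product, which the naming rule passed over and which were chosen here after their values were seen. OS06G0566201, annotated as a hypothetical gene and next in identifier to ZIP10 (OS06G0566300), was at 2061 normalized counts without Zn and 21.4 with Zn in inefficient crowns. Its log2 fold change in the authors' deposited table was 6.59 (SE 0.30, adjusted p = 3.80e-72, the DESeq2 test). OS11G0437600, of the DUF506 family of unknown function, was at 3838 without Zn and 2.99 with Zn (log2 10.33, SE 0.57, adjusted p = 2.87e-57 from the authors' deposited table). OS01G0510200, a conserved hypothetical protein, was at 5151 without Zn and 13.7 with Zn (log2 8.56, SE 0.75, adjusted p = 3.29e-21 from the authors' deposited table). Its response difference, inefficient minus efficient, computed from the authors' deposited tables, was 6.12 (SE 1.04, adjusted p = 3.17e-06), against -0.56 (SE 0.47, adjusted p = 0.824) for OS06G0566201 and 0.60 (SE 0.80, adjusted p = 0.986) for OS11G0437600. In all, 153 of the 584 rises and 82 of the 260 falls had no informative product, and 617 of the 844 called genes stood in none of the gene lists.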
